A study of Mus musculus with 14 samples.

Results

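The genes described here encode the protein subunits of the oxidative phosphorylation machinery, the 5 complexes of the inner mitochondrial membrane that respire and make ATP. Members were chosen by gene symbol: those beginning with Ndufa, Ndufb, Ndufc, Ndufs or Ndufv (complex I), Sdha to Sdhd (complex II), Uqcr (complex III), Cox4 to Cox8 (complex IV) and Atp5 (complex V, the ATP synthase), together with the mt-Nd, mt-Cytb, mt-Co and mt-Atp genes of mitochondrial DNA. Assembly factors (Ndufaf, Sdhaf) and symbols marked as pseudogenes were left out, and a mean of at least 1 TPM (the abundance of a transcript scaled so that each library has the same total) over 10 libraries was required. This gave 94 members of the 54332 genes in the table, 81 encoded in the nucleus and 13 in mitochondrial DNA. The 81 include *Ndufb4c*, which is annotated as a processed pseudogene although its symbol bears no such mark. The nuclear members were 40 of complex I, 4 of complex II, 8 of complex III, 12 of complex IV and 17 of complex V, and the mitochondrial ones 7, 0, 1, 3 and 2. A further 11 symbols matched but lay under the minimum. The highest of these was *Cox7a1* at 0.634 TPM, and the lowest members were *mt-Nd4l* at 4.68 TPM and *Cox6b2* at 11.98 TPM.

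The libraries were made from EpdSCs, which renew the epidermis between hair follicles, FACS-sorted from mouse back skin as CD49f-high, CD34-neg and Ly6A-high cells lacking CD31, CD45, CD117 and CD140a. All mice, those at D0 included, were CD1 animals labelled male that carried 2 transgenes: K14rtTA, in which the *Krt14* promoter of basal epidermis drives the DOX-dependent activator, and TRE-myc-Sox9, the MYC-tagged *Sox9* that it switches on. D0 was P21, before DOX, and W1, W2 and W6 were 1, 2 and 6 weeks of DOX, at P28, P35 and P63. The W12 cells came from skin of newborn mice grafted onto female immunocompromised Nude hosts and induced for 12 weeks after healing. Grafting and the longer induction thus cannot be told apart. There were 2 biological replicates at each of the 5 timepoints, 10 libraries in all. Age rose with time on DOX, and RNA of age-matched uninduced mice was not analysed here, nor were the 4 libraries of hair placode cells in the series of 14. TPM carry no depth, so that of each library is unknown, and fewer cells of a type cannot be told apart from less RNA per cell.

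Complex I (NADH dehydrogenase) and complex II (succinate dehydrogenase) pass electrons to ubiquinone, complex III (the cytochrome *bc*1 complex) passes them on to cytochrome *c*, and complex IV (cytochrome *c* oxidase) gives them to oxygen. The proton gradient that complexes I, III and IV build drives the ATP synthase. Every complex but the second joins subunits read from nuclear genes with core subunits read from the mitochondrial genome. The nuclear transcripts are made by RNA polymerase II, with NRF1 and factors of the ETS family known to act at many of their promoters, whereas mitochondrial transcripts are cut from long RNAs that POLRMT reads off each strand. Mouse chromosome 1 also holds a recent insertion of mitochondrial DNA, nearly identical to a run of these genes.

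That insertion is shown first because its copies and the mitochondrial genes share reads. Within the 345 bases aligned between *mt-Nd3*, which encodes a complex I subunit, and its chromosome 1 copy *Gm28438*, 344 were the same. The exception was T3C, counted from base 1 of *mt-Nd3*. The first 33 bases of both, read from GRCm38 with GENCODE M21, are given below with the base that differs in capitals, on the plus strand of chrM:9459-9491 and the minus strand of chr1:24613087-24613119.
mt-Nd3: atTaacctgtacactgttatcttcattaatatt
Gm28438: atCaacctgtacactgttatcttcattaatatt
A read from any other aligned part fits both genes equally. The copies of *mt-Atp6*, *mt-Co2*, *mt-Co3* and *mt-Nd4l* (*Gm10925*, *Gm28661*, *Gm28437* and *Gm10222*) were identical over 678, 681, 783 and 294 aligned bases, so within these no read tells a gene from its copy. The copy of *mt-Co1*, *Gm29216*, matched it in 486 of 492 aligned bases.

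The promoters of the nuclear members were searched for 4 motifs on both strands of the 250 bases before the RefSeq start (GRCm38.p6). Such windows were found for 67 of the 81 nuclear members. GCGCATG, letters of the site that NRF1 binds, stood in 10 of the 67 (14.9%), against 3.68% of 27025 genes with such a window and 6.63% of the 9603 of them that were tested here. The annotations place some of these bases inside transcripts: GENCODE M21 exons cover all 29 bases printed for *Sdhb*, all 18 for *Ndufa8* and 2 of those for *Cox6a1*, and none for *Atp5l* and *Ndufb6*. Of these 10 genes, 5 were called higher at W12 by the test given below, and of the 57 others with a window 28, against 17.9% of all genes tested. The bases around the match are given for the 5, with the match on either strand in capitals: the ATP synthase subunit *Atp5l* (chr9:44920964-44920992, minus strand), the complex IV subunit *Cox6a1* (chr5:115349103-115349131, minus), the complex I subunits *Ndufa8* (chr2:36049339-36049356, minus) and *Ndufb6* (chr4:40279481-40279509, minus), and the iron-sulfur subunit of complex II, *Sdhb* (chr4:140961207-140961235, plus).
Atp5l: aaccaataacgCATGCGCatttcccccac
Cox6a1: acaggaacgggGCGCATGcgcgctctcgc
Ndufa8: cgctggagacgCATGCGC
Ndufb6: gagagggctttGCGCATGagcagagcctg
Sdhb: agcccagtgggCATGCGCcctacgggccg
The ETS letters CCGGAAG stood in 17.9% of the member windows, against 7.83% of all windows and 16.3% of those of tested genes. CCAAT stood in 41.8%, 37.5% and 40.9%, and ACGTG, the core that hypoxia-inducible factors bind, in 20.9%, 18.5% and 25.2%. Against the genes tested, the ETS and CCAAT shares of the members were thus close to the background.

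All 8 markers of basal EpdSCs were at 1 TPM or more in every library and summed to 57986 and 60457 TPM at D0, 45029 and 45023 at W1, 39705 and 40957 at W2, 35409 and 36195 at W6, and 45254 and 46996 at W12. MYC-SOX9 lay between 606 and 3414 TPM in the 8 libraries after DOX, against 89.6 and 45.6 TPM at D0. D0 replicate 2 stood apart from D0 replicate 1. It listed *Xist* at 4.61 TPM and *Ddx3y* at 0.0278 TPM, against its male label. The W12 libraries, from grafts on female hosts, listed both genes, with *Xist* at 5.51 and 3.50 TPM. Stress genes of dissociation summed to 44134 TPM in D0 replicate 2, 28102 in D0 replicate 1 and 5060 to 11992 in the other 8. The 7 suprabasal keratinocyte markers, none at 0 in any library, summed to 5785 and 1912 TPM at D0, 3772 to 7349 at W1 and W2, and 11938 to 13558 at W6 and W12. Markers of blood and vessels were higher at W12 than in the other libraries, with the 5 erythroid genes at 432 and 463 TPM (30.6 at most in the others) and the 5 endothelial genes at 54.5 and 117 TPM (2.23 at most in the others). The 8 immune genes summed to 104 and 128 TPM at W12 (28.3 at most in the others), nearly all of it *Cd74* at 102 and 124 TPM, while *Ptprc* was at 0.327 TPM or less in every library. The 6 fibroblast genes summed to 52.2 TPM in W6 replicate 2 and 28.1 at most in the others, with *Dcn* at 51.2 TPM in that library and *Col1a1* at 0.481 TPM or less in all. The part of these differences in the results below was not tested.

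The subunit RNA of the nuclear and the mitochondrial genome followed different courses. The 81 nuclear members summed to 38197 and 24266 TPM in D0 replicates 1 and 2, 32402 and 32950 at W1, 35602 and 36984 at W2, 42213 and 47171 at W6, and 44407 and 45178 at W12. The W6 and W12 libraries were above all others, while W1 and W2 lay between the D0 libraries. The 13 mitochondrial members summed to 10946 and 8901 TPM at D0, 19220 and 17644 at W1, 18375 and 17874 at W2, 13733 and 17702 at W6, and 24025 and 17901 at W12. All 8 libraries after DOX lay above both D0 libraries, and W1 was already as high as W2. The log2 ratio of the mitochondrial to the nuclear sum was -1.80 and -1.45 at D0, -0.75 and -0.90 at W1, -0.95 and -1.05 at W2, -1.62 and -1.41 at W6, and -0.89 and -1.34 at W12. It was above both D0 values at W1, W2 and W12, while at W6 replicate 1 lay between the D0 values and replicate 2 above them. The W6 mean differed from that of D0 by 0.11, against 0.80 at W1, 0.62 at W2 and 0.51 at W12. By the mean of log2(TPM + 1) in place of the sum, the difference at W6 was 0.29, with both W6 libraries (0.71 and 0.56) above both at D0 (0.17 and 0.51), and with quantile normalization it was 0.31. That mean weighs each gene alike and includes *mt-Nd4l*, listed at 0 TPM in both D0 libraries and at 17.5 and 0 at W6. A mean without this gene was not tried, so the separation of W6 from D0 may rest on it. With the sums, the difference at W6 turned to -0.07 without D0 replicate 1 and was 0.0049 without W6 replicate 2, 0.21 without W6 replicate 1 and 0.29 without D0 replicate 2. At W12 it was 0.29 without W12 replicate 1 and 0.34 without D0 replicate 1.

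**Figure D1:**
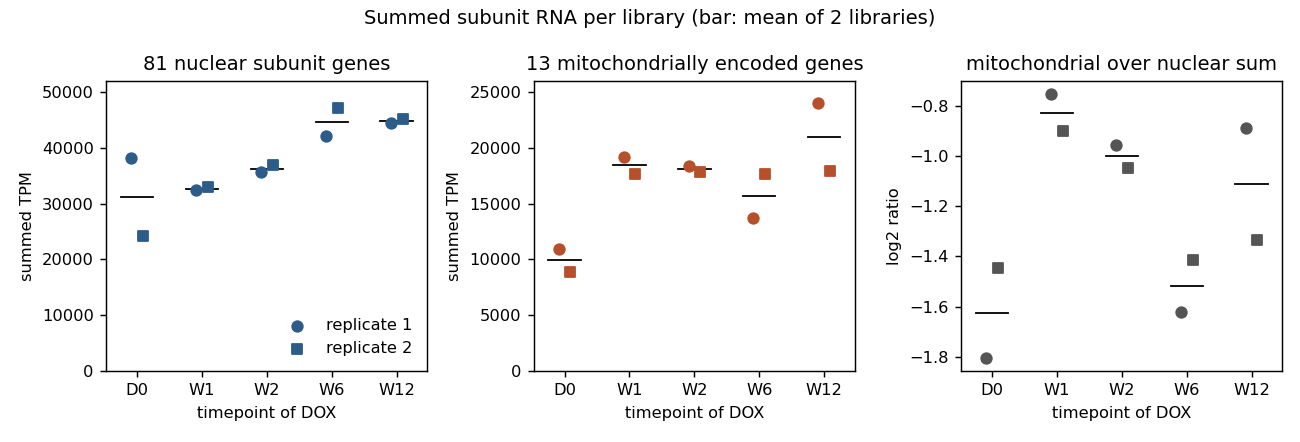
Summed TPM of the 81 nuclear members, summed TPM of the 13 mitochondrially encoded members, and the log2 ratio of the mitochondrial to the nuclear sum, each against timepoint; circles are replicate 1, squares replicate 2 and bars the mean of 2 libraries. The mitochondrial sum is above D0 from W1 on, the nuclear sum from W6 on, and the ratio at W6 overlaps that of D0, with replicate 2 above both D0 libraries.

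Gene by gene, the first calls of higher RNA were at W1 among the mitochondrial members and at W2 among the nuclear members, and most nuclear calls were at W6 and W12. Calls are genes with a Benjamini-Hochberg adjusted *P* under 0.05 in limma over all 13110 genes tested, and changes are on the log2(TPM + 1) scale. At W1 against D0, 4 of 13 mitochondrial members were called higher and none lower, while of 81 nuclear members none was called higher and *Ndufa4l2* lower, with 9.89% of all genes called, 5.79% higher and 4.1% lower. At an unadjusted *P* under 0.05, 12 mitochondrial and 6 nuclear members differed at W1, against 25.6% of all genes. The median change was 0.78 over the mitochondrial members, 0.11 over the nuclear members and 0.09 over all genes. At W2, 7 mitochondrial members and *Sdhb* alone of the nuclear ones were called higher, and *Ndufa4l2* lower, against 9.06% of all genes called higher and 6.64% lower (15.7% in all). The W2 medians were 0.81, 0.27 and 0.06. In these 2 early comparisons the share of nuclear members called higher was below that of all genes and that of mitochondrial members above it.

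At W6 the nuclear members called higher were 29 of 81, with *Ndufa4l2* lower, and the mitochondrial ones 6 of 13, against 18.3% of all genes higher and 14.1% lower (32.4% in all). At W12, 39 nuclear members were called higher and *Sdhc* lower, and 12 of 13 mitochondrial members higher, against 17.9% of all genes higher and 25.1% lower (43% in all). The medians at W6 were 0.55 (nuclear), 0.64 (mitochondrial) and 0.08 (all genes), and at W12 they were 0.58, 1.08 and -0.08. Of the nuclear members, 63, 75, 77 and 76 of 81 had a change above 0 at W1, W2, W6 and W12, against 59.6%, 55.7%, 54.6% and 46% of all genes. Without D0 replicate 1 these counts were 79, 80, 79 and 78, and without D0 replicate 2 they were 10, 31, 63 and 66. By complex, the nuclear members called higher at W6 and at W12 were 13 and 18 of 40 in complex I, 2 and 2 of 4 in complex II, 3 and 6 of 8 in complex III, 3 and 6 of 12 in complex IV, and 8 and 7 of 17 in complex V. The medians of the complexes lay between 0.52 and 0.58 at W6 and between 0.37 (complex II) and 0.64 (complex V) at W12. Nuclear members have short transcripts, with a median of 595.5 bases against 1250 for all genes tested. The 3207 genes tested within the middle range of their lengths (502 to 815 bases) had medians of 0.11, 0.09, 0.15 and 0.04 at W1, W2, W6 and W12. With a correction for length and GC content, the nuclear medians were 0.07, 0.22, 0.40 and 0.29 and the mitochondrial ones 0.90, 0.92, 0.44 and 0.61, with 23 nuclear members called higher at both W6 and W12.

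**Figure D2:**
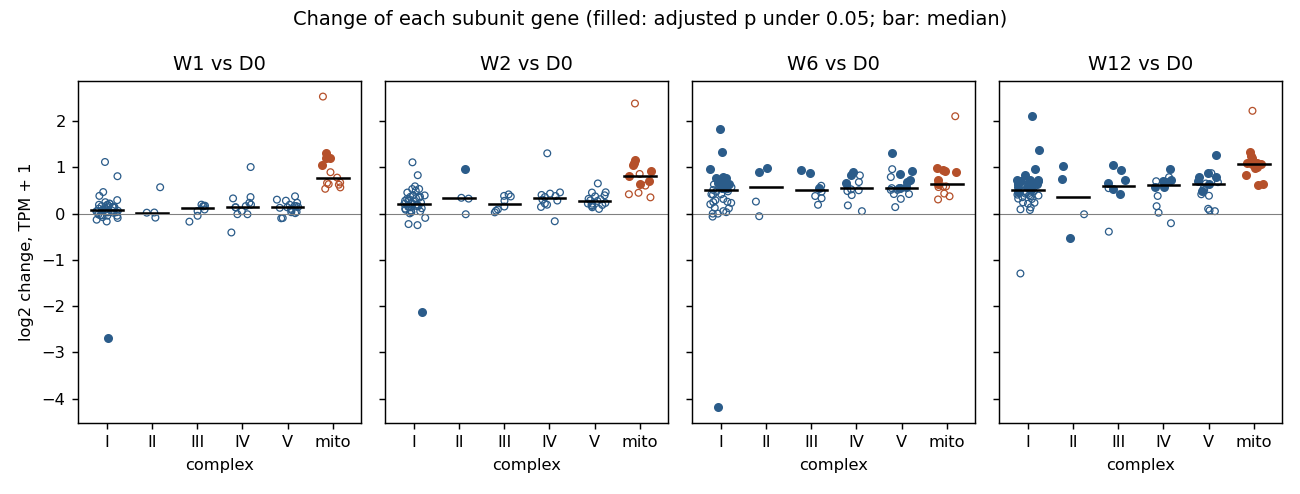
Log2 change in TPM + 1 of each member against D0, in 1 panel per timepoint, for nuclear members by complex (I to V) and for the mitochondrially encoded members (mito); filled points have a limma adjusted p under 0.05 and bars are medians. The mitochondrial median is 0.78 at W1 while those of the nuclear complexes lie near 0, and at W6 and W12 the nuclear medians lie between 0.37 and 0.64.

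The counts of calls depended on single libraries, those at D0 and those of the later timepoint. The share of all genes called with a library left out is not given here, so these counts have no background beside them. Without D0 replicate 1, the nuclear members called higher at W1, W2, W6 and W12 were 24, 51, 67 and 65, and without D0 replicate 2 they were 0, 1, 13 and 15. The nuclear medians without D0 replicate 1 were 0.41, 0.58, 0.85 and 0.91, against 0.12, 0.09, 0.10 and -0.04 over all genes. Without D0 replicate 2 the nuclear medians were -0.21, -0.06, 0.20 and 0.25, against 0.07, 0.03, 0.05 and -0.13 over all genes. In the latter case the sign of the nuclear median at W1 and W2 turned, while that at W6 and W12 did not. Leaving out W6 replicate 1 or 2 gave 17 and 8 nuclear members called higher at W6, and leaving out W12 replicate 1 or 2 gave 7 and 3 at W12. All of the 13 and 15 that were called without D0 replicate 2 were among the 29 and 39. For the mitochondrial members, leaving out D0 replicate 1 or 2 gave 6 and 2 called higher at both W1 and W2, 9 and 1 at W6, and 12 and 7 at W12. No mitochondrial member was called at W1 without either of the W1 libraries or at W2 without W2 replicate 2, and 1 was called without W2 replicate 1. At W6 they were 7 without W6 replicate 1 and 3 without W6 replicate 2, and at W12 5 without W12 replicate 1 and 11 without W12 replicate 2.

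Both libraries of a timepoint lay above both D0 libraries for 13 of 13 mitochondrial members at W1 and at W2, 10 at W6 and 13 at W12, where this held for 34.4%, 35.1%, 35.4% and 32.8% of all genes. For the nuclear members the numbers were 8, 28, 51 and 63 of 81. The nuclear share at W1 was below that of all genes and the share at W12 above it. Both libraries lay below both D0 libraries for 2, 1, 1 and 3 nuclear members and for no mitochondrial member (*Ndufa4l2* at each timepoint, *Sdha* at W1, and *Sdhc* and *Uqcrc1* at W12), against 20.7%, 26.6%, 27.1% and 41.9% of all genes.

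Between the D0 libraries, nearly all nuclear members shifted in the same direction. Of all genes tested 52.2% were lower in D0 replicate 2, and of genes of like length 60.0%. Sizes of the differences apart from their sign were not compared. In D0 replicate 2, 80 of 81 nuclear members were lower than in D0 replicate 1, by a median of -0.62 in log2(TPM + 1), and *Ndufa4l2* alone was higher. Of the mitochondrial members 11 of 13 were lower, by a median of -0.31, whereas the median over all genes tested was -0.03 and that over genes of like length -0.12. At W6, 71 nuclear and 12 mitochondrial members were higher in replicate 2 than in replicate 1 (medians 0.22 and 0.38, against 0.09 over all genes), and at W12 the mitochondrial members were lower in replicate 2 in 12 of 13 (median -0.40, against 0.08 over all genes). The nuclear members thus shifted together between the 2 libraries of the group that every comparison with D0 uses.

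**Figure D3:**
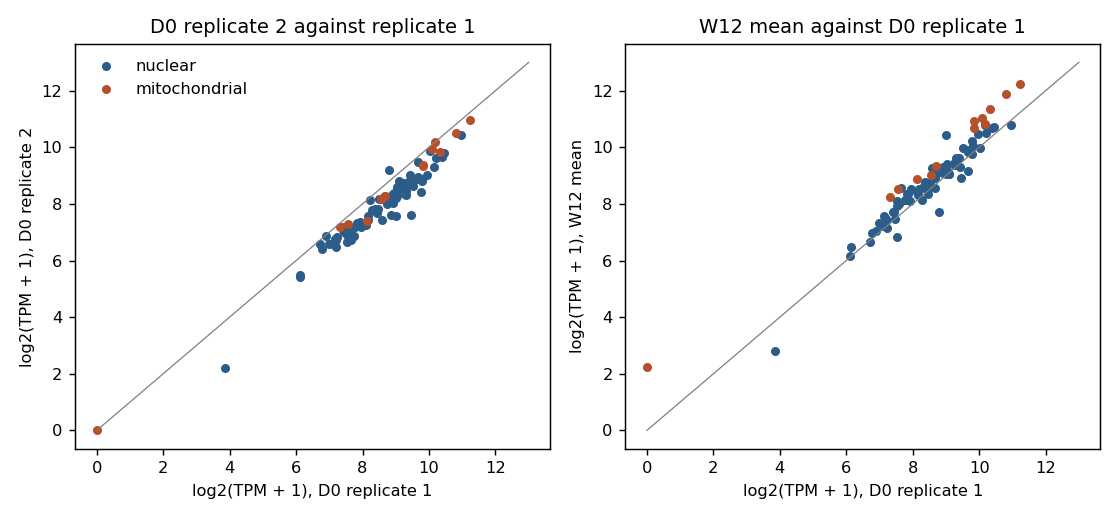
Left, log2(TPM + 1) of each member in D0 replicate 2 against D0 replicate 1; right, the W12 mean against D0 replicate 1; blue points are nuclear members, orange points mitochondrially encoded members, and the line marks equal values. In D0 replicate 2, 80 of 81 nuclear members lie below the line, and against D0 replicate 1 the mitochondrial members at W12 lie above it.

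Of the mitochondrially encoded genes, the 4 called at W1 were *mt-Nd3*, *mt-Cytb*, *mt-Co3* and *mt-Atp8*, 1 each of complexes I, III, IV and V. *mt-Atp8*, a subunit of the membrane part of the ATP synthase, was at 1803 and 1453 TPM at D0, 3415 and 3304 at W1, 3473 and 3483 at W2, 2347 and 3046 at W6, and 4136 and 3394 at W12. All 8 libraries after DOX were above D0, with W6 the lowest of the later timepoints. It rose by 1.05 at W1 (SE 0.19, adjusted *P* = 0.0107), 1.10 at W2 (0.00638), 0.72 at W6 (0.0208) and 1.21 at W12 (0.00154). The W12 call held without each of the 4 libraries in turn (adjusted *P* up to 0.0188). That at W1 was lost without either W1 library (0.0739 and 0.0817), that at W2 without W2 replicate 2 (0.0564) and that at W6 without D0 replicate 2 or W6 replicate 2 (0.0812 and 0.112). *mt-Cytb*, the cytochrome *b* of complex III and its one mitochondrial subunit, was at 1281 and 920 TPM at D0, 2627 and 2355 at W1, 2384 and 2115 at W2, 1794 and 2261 at W6, and 2893 and 2316 at W12. It too lay above D0 in all 8 libraries and was called at all 4 timepoints, with changes of 1.20, 1.05, 0.89 and 1.25 (SE 0.21; adjusted *P* = 0.00960, 0.0130, 0.0139 and 0.00216). The call at W12 held without each library in turn, and the others were lost without either W1 library (up to 0.0739), either W2 library (up to 0.0976), and D0 replicate 2 or W6 replicate 2 (up to 0.0758).

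*mt-Co1*, *mt-Co2* and *mt-Co3* encode the catalytic core of complex IV. *mt-Co2* was at 2393 and 2004 TPM at D0, 3962 and 3562 at W1, 3937 and 3755 at W2, 3077 and 3805 at W6, and 5595 and 3937 at W12. It was called higher at W2 (0.81, adjusted *P* = 0.0340), W6 (0.64, 0.0460) and W12 (1.10, 0.00383), and at W1 the change of 0.78 had an adjusted *P* of 0.0526. *mt-Co3* had another course, with 910 and 649 TPM at D0, 1895 and 1658 at W1, 1612 and 1841 at W2, 760 and 1188 at W6, and 2233 and 1667 at W12. Its W6 libraries overlapped D0, and it was called higher at W1 (1.20, adjusted *P* = 0.0215), W2 (1.16, 0.0188) and W12 (1.33, 0.00413) but had a change of 0.31 at W6 (adjusted *P* = 0.389). *mt-Co1* lay between 1150 and 1160 TPM at D0 and between 1382 and 2104 TPM after DOX, and was called at W2 (0.70, adjusted *P* = 0.0372) and W12 (0.63, 0.0250). The W12 calls of *mt-Co2* and *mt-Co3* held without each library in turn (adjusted *P* up to 0.0355 and 0.0406). The W2 call of *mt-Co1* was lost without any 1 of the 4 libraries (adjusted *P* 0.0615 to 0.174), and its W12 call without D0 replicate 2 or W12 replicate 1 (0.0629 and 0.171). The W2 and W6 calls of *mt-Co2* and the W1 and W2 calls of *mt-Co3* were each lost without D0 replicate 2 or either later library (adjusted *P* of 0.102, 0.0564, 0.0867 and 0.0753 or more).

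Of the 7 complex I genes of mitochondrial DNA, which encode its membrane arm, *mt-Nd1* was at 909 and 668 TPM at D0, 1256 and 1213 at W1, 1284 and 1164 at W2, 1437 and 1575 at W6, and 1830 and 1475 at W12. It was called higher at W2 (0.65, adjusted *P* = 0.0468), W6 (0.95, 0.00611) and W12 (1.08, 0.00231), and the calls at W6 and W12 held without each library in turn, while that at W2 was lost without D0 replicate 2 or either W2 library (up to 0.231). *mt-Nd3* was called at W1 (1.32, adjusted *P* = 0.0168) and W12 (1.09, 0.0112), *mt-Nd5* and *mt-Nd6* at W6 (0.93 and 0.98) and W12 (1.06 and 1.00), and *mt-Nd2* and *mt-Nd4* at W12 alone (0.64 and 0.84, adjusted *P* = 0.0465 and 0.0146). *mt-Atp6*, of the ATP synthase, was called at W2 (0.92, adjusted *P* = 0.0354) and W12 (0.99, 0.0115), the former lost without any 1 library. Of these calls at W12, those of *mt-Nd2*, *mt-Nd3*, *mt-Nd4* and *mt-Atp6* were lost without D0 replicate 2 or W12 replicate 1 (adjusted *P* up to 0.253, 0.0873, 0.0968 and 0.0847), that of *mt-Nd2* also without W12 replicate 2 (0.0546), and those of *mt-Nd5* and *mt-Nd6* without W12 replicate 1 (0.0536 and 0.0612). At W6 both were lost without D0 replicate 2 (0.0863 and 0.0584) and *mt-Nd5* also without W6 replicate 2 (0.0798), and *mt-Nd3* at W1 was lost without D0 replicate 2 or either W1 library (up to 0.103). *mt-Nd6*, the one subunit encoded on the other strand of mitochondrial DNA, was at 158 and 143 TPM at D0 and 346 and 263 at W12. Of the 30 calls of mitochondrial members, the one between W6 and W12 included, 6 held without each library in turn.

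**Figure D4:**
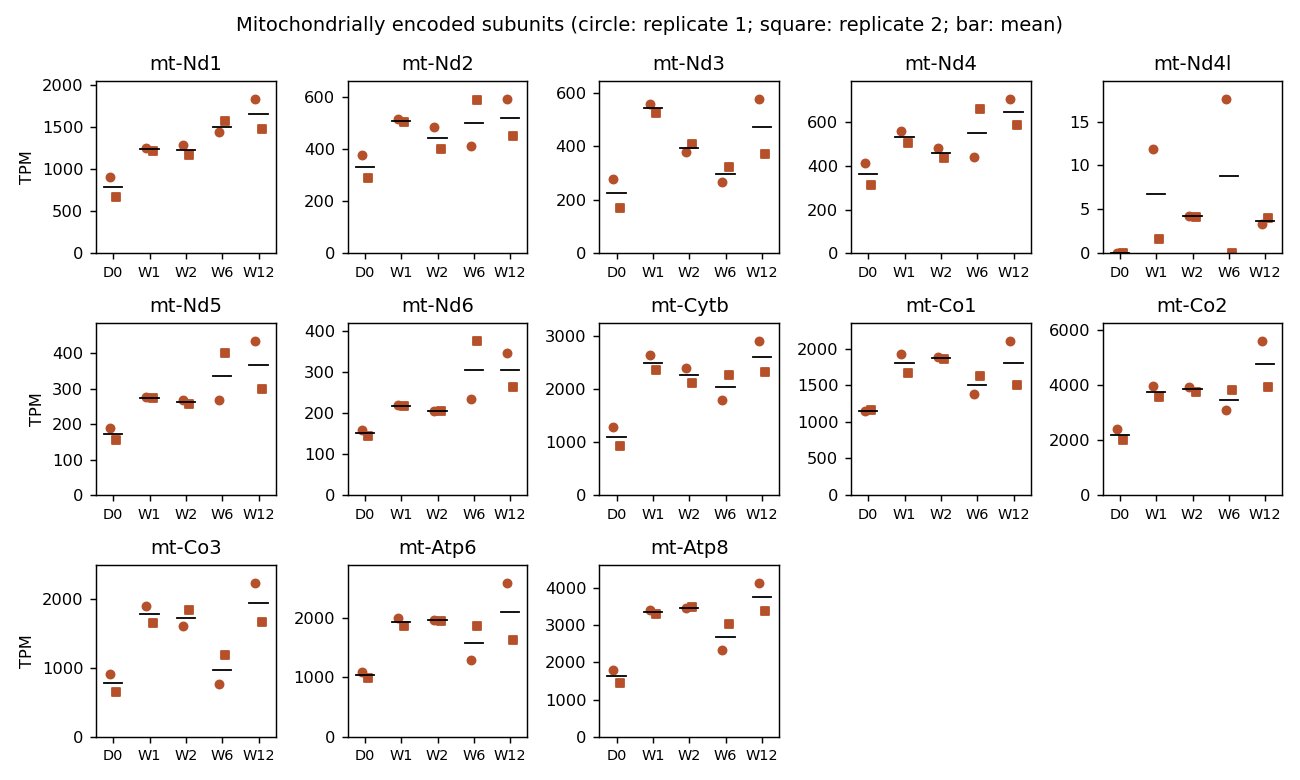
TPM of each of the 13 mitochondrially encoded members against timepoint; circles are replicate 1, squares replicate 2 and bars the mean of 2 libraries. All but *mt-Nd4l* lie at 143 TPM or more in every library, and at W6 *mt-Co3* and *mt-Nd3* overlap their D0 values.

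*mt-Nd4l* was listed at 0 in both D0 libraries, at 11.9 and 1.60 TPM at W1, 4.27 and 4.16 at W2, 17.5 and 0 at W6, and 3.32 and 4.05 at W12, and was called at no timepoint. Its identical chromosome 1 copy *Gm10222* averaged 357 TPM. The sum of both was 282 and 191 TPM at D0, 403 and 360 at W1, 328 and 310 at W2, 350 and 480 at W6, and 530 and 384 at W12, and rose by 0.82 at W6 (adjusted *P* = 0.0300) and 0.96 at W12 (0.0122). The 6 copies held between 42.0% and 49.7% of the TPM of the mitochondrial members and copies together, and *Gm28437* held 71.1% to 84.4% of that of *mt-Co3*. With each copy added to its gene, 6, 7, 8 and 12 mitochondrial members were called higher at W1, W2, W6 and W12. The ratio of mitochondrial members and copies together to the unchanged nuclear sum differed from D0 by -0.0026 at W6. The sum of *mt-Co3* and its copy was 0.68 higher at W12 (adjusted *P* = 0.0219), a smaller change than that of *mt-Co3* alone. *Gm29216*, the copy of *mt-Co1*, held 60.5% to 67.6% of their joint TPM. With it added, the calls of *mt-Co1* at W2 and W12 were lost (limma changes of 0.66 and 0.55, adjusted *P* = 0.0693 and 0.0670).

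Among the nuclear members counted in complex I by their symbols, the largest changes were those of the related genes *Ndufa4* and *Ndufa4l2*, in opposite directions. NDUFA4, named as a complex I subunit and since placed in complex IV, is made in most cells, and NDUFA4L2 is known as its hypoxia-induced relative. *Ndufa4* (chr6:11900292-11907497) was at 514 and 190 TPM at D0, 624 and 741 at W1, 653 and 701 at W2, 1139 and 1107 at W6, and 1234 and 1511 at W12. All libraries after DOX were above both at D0, and those of W6 and W12 above all earlier ones. It rose by 1.84 at W6 (SE 0.37, adjusted *P* = 0.00743) and 2.12 at W12 (SE 0.37, 0.00262), and the changes of 1.12 at W1 and 1.11 at W2 were not called (0.102 and 0.0804). Over the alternatives these early changes lay between 0.40 and 1.83 at W1 and between 0.40 and 1.82 at W2, each highest without D0 replicate 1. The W12 call held in all 16 alternatives tried (adjusted *P* 7.48e-05 to 0.0297), and that at W6 in 16 of 17.

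*Ndufa4l2* (chr10:127514967-127517154) was at 442 and 580 TPM at D0, 55.4 and 110 at W1, 87.1 and 152 at W2, 15.2 and 47.0 at W6, and 252 and 168 at W12. All 8 libraries after DOX were below both D0 libraries, W6 was the lowest and W12 stood between D0 and the rest. It fell by 2.68 at W1 (SE 0.52, adjusted *P* = 0.0142), 2.13 at W2 (0.0278) and 4.19 at W6 (0.000787), and the W12 value of -1.29 was not called (0.0746). The W6 call held in 17 of 17 alternatives (adjusted *P* 0.000603 to 0.0156), whereas that at W1 was lost without D0 replicate 2 or W1 replicate 1 (0.0704 and 0.0980) and that at W2 without D0 replicate 2 or either W2 library (0.113, 0.166 and 0.0664). From W6 to W12 it rose by 2.89 (adjusted *P* = 0.00767), a call lost without W12 replicate 1 (0.0732), and it fell by 2.06 from W2 to W6 (0.0340). The ratio of *Ndufa4l2* to *Ndufa4* TPM was 0.859 and 3.05 in the D0 libraries and lay between 0.0133 and 0.217 in the 8 libraries after DOX. *Ndufa4l2* was the 1 nuclear member with its highest mean at D0, where 48 had theirs at W12, 26 at W6 and 6 at W2.

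*Ndufv1* and *Ndufs1* encode core subunits of the peripheral arm of complex I, where NADH is oxidised. *Ndufv1* was at 168 and 134 TPM at D0, 174 and 167 at W1, 210 and 215 at W2, 248 and 264 at W6, and 189 and 227 at W12. It peaked at W6, where it rose by 0.76 (SE 0.15, adjusted *P* = 0.00667), a call that held without each library in turn, and was 0.46 higher at W12 (0.0373), a call lost without D0 replicate 2 or W12 replicate 2 (0.160 and 0.198). *Ndufs1*, at 69.2 and 43.6 TPM at D0 and 83.0 and 91.8 at W12, was 0.66 higher at W12 (adjusted *P* = 0.0374), which was lost without D0 replicate 2 or either W12 library (up to 0.198). The other complex I members called higher changed by 0.52 to 1.37 at W6 and W12. *Ndufb4* and *Ndufb4c*, the latter annotated as a processed pseudogene and identical to *Ndufb4* over 390 bases, cannot be told apart by reads from these bases, and neither was called.

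The 4 genes of complex II, all nuclear, did not move as one. *Sdha*, the flavoprotein, lay between 93.2 and 124 TPM in all 10 libraries, with changes of -0.09 to 0.26, and was not called. *Sdhb* (chr4:140961203-140979193), the iron-sulfur subunit, was at 229 and 159 TPM at D0, 278 and 290 at W1, 370 and 379 at W2, 352 and 363 at W6, and 300 and 345 at W12, and all later libraries were above D0. It was the 1 nuclear member called higher at W2 (0.97, SE 0.18, adjusted *P* = 0.00820), and was called at W6 (0.90, 0.00626) and W12 (0.75, 0.00956). The W6 call held without each library in turn, that at W2 was lost without W2 replicate 1 or 2 (0.0551 and 0.0688) and that at W12 without W12 replicate 2 (0.0651).

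*Sdhc* and *Sdhd* encode the membrane anchor of complex II as a pair. *Sdhc* was at 185 and 140 TPM at D0, 170 and 157 at W1, 206 and 203 at W2, 164 and 146 at W6, and 108 and 115 at W12, so W12 was the lowest, below all other libraries. *Sdhd* was at 184 and 99.3 TPM at D0, 139 and 136 at W1, 171 and 168 at W2, 251 and 292 at W6, and 265 and 289 at W12, and its W6 and W12 libraries were above all others. At W12 *Sdhc* fell by 0.53 (SE 0.16, adjusted *P* = 0.0252), the 1 nuclear member called lower there, and *Sdhd* rose by 1.03 (SE 0.25, 0.0105). The *Sdhc* call was lost without D0 replicate 1 or either W12 library (0.0813, 0.117 and 0.0694). *Sdhd* was called at W6 as well (1.00, adjusted *P* = 0.0162), and its calls were lost without W6 replicate 2 (0.0753) and without W12 replicate 2 (0.0633).

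**Figure D5:**
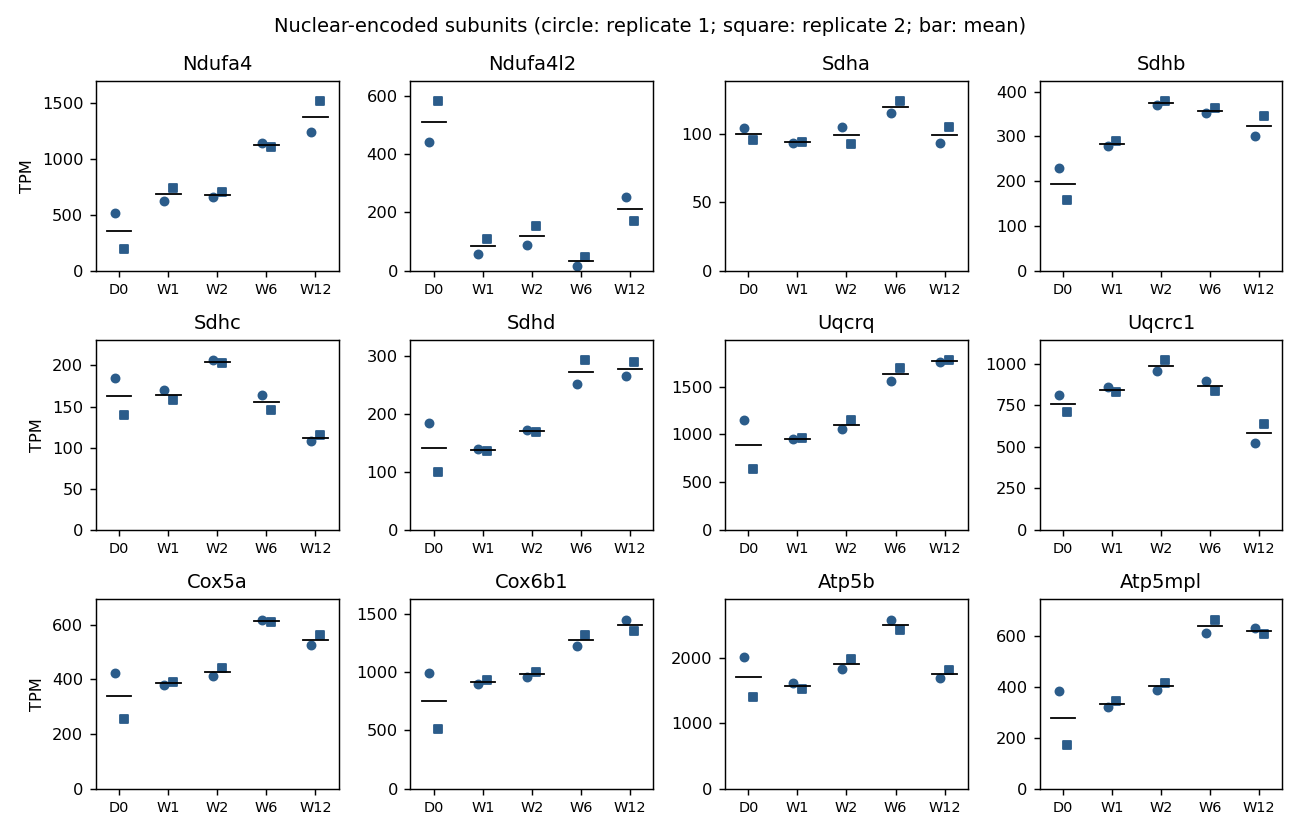
TPM of 12 nuclear members against timepoint; circles are replicate 1, squares replicate 2 and bars the mean of 2 libraries. *Ndufa4* and *Ndufa4l2* move in opposite directions from D0 to W6, *Sdhc* is lowest at W12 where *Sdhd* is high, and *Atp5b* is highest at W6.

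In complex III, *Uqcrq* (chr11:53427922-53430831), a small subunit, had the largest change of its complex at W6 and at W12. It was at 1147 and 633 TPM at D0, 953 and 959 at W1, 1059 and 1146 at W2, 1565 and 1693 at W6, and 1763 and 1775 at W12. W6 and W12 lay above all earlier libraries, and it rose by 0.93 (SE 0.24, adjusted *P* = 0.0194) and 1.05 (0.00866), with the W6 call lost without either W6 library (0.0516 and 0.0786) and that at W12 without W12 replicate 1 (0.0501). *Uqcrfs1*, the Rieske iron-sulfur protein, was at 173 and 143 TPM at D0, 159 to 170 at W1 and W2, 242 and 224 at W6, and 210 in both W12 libraries. It rose by 0.56 at W6 (SE 0.13, adjusted *P* = 0.0134), a call that held without each library in turn, and by 0.42 at W12 (0.0329), lost without D0 replicate 2 or either W12 library (up to 0.120). *Uqcr10*, another small subunit and the third called at W6, was at 876 and 451 TPM at D0, 705 and 712 at W1, 813 and 867 at W2, 1110 and 1207 at W6, and 1211 and 1193 at W12. It had the largest change of the complex at W2 (0.42, adjusted *P* = 0.314) and rose by 0.88 at W6 (0.0324) and 0.93 at W12 (0.0196). The W6 call was lost without D0 replicate 2, where the change was 0.40, or without W6 replicate 1 or 2, where it was 0.94 and 0.82. That at W12 was lost without W12 replicate 1 or 2, with changes of 0.92 and 0.94. *Uqcrb* had the smallest change of the complex at W2 (0.03, adjusted *P* = 0.950) and was not called. *Uqcrc1*, a core protein of the matrix side, had the lowest change of the complex at W6 and W12. Its values were 809 and 706 TPM at D0, 859 and 828 at W1, 955 and 1018 at W2, 892 and 834 at W6, and 522 and 636 at W12, with both W12 libraries below all others. The change at W12 was -0.39 against D0 (adjusted *P* = 0.0608), and it fell by 0.58 against W6 (0.0270), a call lost without W6 replicate 1 or W12 replicate 1 (0.0980 and 0.176).

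The nuclear subunits of complex IV surround the mitochondrially encoded core, and several exist in a common form and a form of a few tissues. The common forms were high and the others at or near 0. *Cox4i1*, *Cox6a1*, *Cox6b1*, *Cox7a2* and *Cox8a* lay between 352 and 1678 TPM in all libraries, whereas *Cox4i2* averaged 0.139, *Cox6a2* 0.00469, *Cox7a1* 0.634, *Cox8b* 0.0283 and *Cox8c* 0 TPM. *Cox6b2*, known from testis, was the exception at 3.59 to 20.2 TPM, with its highest values at W2 (20.2 and 18.1) and its lowest in D0 replicate 2. Its change at W2 was 1.30 (adjusted *P* = 0.0780) and at W12 -0.21 (0.727).

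Among the common forms of complex IV, *Cox4i1* was at 1041 and 928 TPM at D0 and 963 and 1030 at W12 and was not called at any timepoint. *Cox5a* was at 424 and 254 TPM at D0, 381 and 391 at W1, 414 and 441 at W2, 618 and 608 at W6, and 525 and 561 at W12, and *Cox6b1* at 989 and 513, 896 and 932, 961 and 998, 1227 and 1315, and 1450 and 1352 TPM. Both were above all earlier libraries from W6. *Cox5a* rose by 0.90 at W6 (SE 0.21, adjusted *P* = 0.0135), held without each library in turn, and by 0.73 at W12 (0.0238). *Cox6b1* rose by 0.83 (0.0384) and 0.97 (0.0162). *Cox8a* rose by 0.66 and 0.58 (adjusted *P* = 0.0287 and 0.0362), and *Cox6a1* and *Cox7a2* at W12 alone, by 0.58 and 0.67 (0.0469 and 0.0471). Without D0 replicate 2 the W12 changes of *Cox5a*, *Cox8a*, *Cox6a1* and *Cox7a2* were 0.36, 0.28, 0.25 and 0.25 and none was called. The W12 calls of these and of *Cox6b1* were also lost without either W12 library, with highest adjusted *P* values of 0.110, 0.135, 0.155, 0.165 and 0.0871. The W6 calls of *Cox6b1* and *Cox8a* were lost without D0 replicate 2 or either W6 library (up to 0.129 and 0.101). *Cox7a2l*, known for its part in supercomplexes, lay between 108 and 135 TPM in all libraries, had the lowest change of the complex at W6 (0.05, adjusted *P* = 0.785) and was not called. *Cox7b* had the widest spread, with 699 and 196 TPM at D0 and 403 and 1075 at W6, and was not called.

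In the ATP synthase, 8 of 17 nuclear members were called at W6 and 7 at W12. *Atp5b*, the catalytic beta subunit and the nuclear member with the highest mean (1885 TPM), was at 2005 and 1394 TPM at D0, 1611 and 1522 at W1, 1833 and 1979 at W2, 2581 and 2420 at W6, and 1691 and 1818 at W12. *Atp5a1*, the alpha subunit, was at 546 and 443 TPM at D0, 520 and 472 at W1, 622 and 606 at W2, 723 and 728 at W6, and 496 and 564 at W12. Its W2 libraries lay above both at D0, with a change of 0.32 that was not called (adjusted *P* = 0.175, and 0.0460 without D0 replicate 1). Both genes were highest at W6 and called there alone, with changes of 0.58 and 0.56 (SE 0.19 and 0.15, adjusted *P* = 0.0420 and 0.0202), and had W12 changes of 0.07 and 0.10 that were not called (0.789 and 0.593). Their W6 calls were lost without D0 replicate 2 (adjusted *P* = 0.138 and 0.0723) or either W6 library (up to 0.127 and 0.0628). *Atp5d*, of the central stalk, was likewise called at W6 alone (0.55, 0.0324, and 0.05 at W12, 0.814), and its W6 call was lost without the same 3 libraries (up to 0.121). From W6 to W12 the 3 genes changed by -0.51, -0.46 and -0.49 in that order (adjusted *P* = 0.0850, 0.0600 and 0.0640), which was not called.

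*Atp5mpl* (chr12:111961375-111966977), a small membrane subunit, was at 382 and 170 TPM at D0, 319 and 343 at W1, 387 and 416 at W2, 611 and 662 at W6, and 629 and 604 at W12. Its W6 and W12 libraries were above all others, and it rose by 1.32 (SE 0.30, adjusted *P* = 0.0124) and 1.27 (0.0103), calls lost without W6 replicate 2 (0.0546) and without either W12 library (0.0615 and 0.0511). *Atp5g1* and *Atp5g2* encode the same mature c subunit of the rotor. They had the lowest changes of the complex at W2 (0.10) and at W6 (0.14), in that order, and were not called at any timepoint. *Atp5g1* was at 872 and 344 TPM at D0, 1186 and 961 at W6, and 869 and 888 at W12, with changes of 0.96 (adjusted *P* = 0.0690) and 0.68 (0.152). Over the alternatives these changes lay between 0.29 and 1.63 at W6 and between 0.01 and 1.35 at W12, each highest without D0 replicate 1. *Gm10039* and *Gm10175*, processed pseudogenes nearly identical to them, averaged 324 and 331 TPM, so their reads cannot be assigned with certainty. 

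Between later timepoints few members differed. From W1 to W2 none of 94 was called in limma and none had an unadjusted *P* under 0.05, against 0.114% of all genes called (0.0458% higher and 0.0686% lower) and 14.5% at an unadjusted *P* under 0.05. From W2 to W6 *Uqcrfs1* rose by 0.50 (adjusted *P* = 0.0386) and *Ndufa4l2* fell, against 16.3% of all genes called (7.99% higher and 8.31% lower), and no mitochondrial member was called. At an unadjusted *P* under 0.05, 12 nuclear and 2 mitochondrial members differed from W2 to W6, against 34.3% of all genes. The call of *Uqcrfs1* was lost without any 1 of the 4 libraries (up to 0.225) and that of *Ndufa4l2* without either W2 library or W6 replicate 1 (up to 0.178). The nuclear median from W2 to W6 was 0.28 and the mitochondrial one -0.17, against 0.01 over all genes. From W6 to W12 *Ndufa4l2* and *mt-Co3* were called higher and *Uqcrc1* lower, against 6.66% of all genes higher and 13.5% lower (20.2% in all). The change of *mt-Co3* was 1.02 (SE 0.26, adjusted *P* = 0.0269). It was called without W6 replicate 2 (0.0141) and lost without W6 replicate 1 or either W12 library (up to 0.184), and the sum of the gene and its copy differed by 0.37 (0.221). Of the nuclear members, 21 lay above in both W12 libraries and 21 below, against 19.4% and 40.9% of all genes. Over the whole course, 30 of 81 nuclear and 10 of 13 mitochondrial members varied by the F test of limma across timepoints (adjusted *P* under 0.05), against 57.5% of all genes.

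Genes that serve the same machinery were counted as lists. Of 78 tested proteins of the mitochondrial ribosome, which translates the 13 mitochondrial subunits, none was called at W1 (5 at an unadjusted *P* under 0.05, against 25.6% of all genes), 1 higher (*Mrpl33*, 0.94) and 2 lower (*Mrps6* and *Mrps10*, -0.65 and -0.80) at W2, each call lost without 2 or more of the 4 libraries, and 42 and 34 higher with none lower at W6 and W12, with medians of 0.60 and 0.54. Over all genes, 5.79% were called higher and 4.1% lower at W1, 9.06% and 6.64% at W2, 18.3% and 14.1% at W6, and 17.9% and 25.1% at W12, with medians of 0.08 and -0.08 at W6 and W12. Without D0 replicate 1 these counts were 64 at W6 and 52 at W12, without D0 replicate 2 they were 10 and 12, without W6 replicate 2 they were 11 at W6, and without W12 replicate 1 or 2 they were 6 and 5 at W12. Of 39 tested assembly factors, 5 were higher at W6 and 4 higher and 2 lower at W12. At W6 these were *Cox14* and *Cox16* of complex IV (0.98 and 0.52), *Sco2*, which delivers copper to it (0.73), and *Foxred1* and *Ndufaf2* of complex I (0.94 and 0.83), each call lost without at least 2 libraries. Those higher at W12 were *Cox14* (1.11, adjusted *P* = 0.00500), *Ndufaf4* of complex I (1.07), *Cox17*, a copper chaperone (0.69), and *Cox16* (0.39), and those lower were *Cox15*, of heme A synthesis (-0.90, 0.00513), and *Timmdc1* of complex I (-0.88). The W12 calls of *Ndufaf4*, *Cox17* and *Cox16* were lost without D0 replicate 2 or either W12 library (up to 0.242, 0.176 and 0.127), and that of *Timmdc1* without D0 replicate 1 or W12 replicate 1 (0.0919 and 0.142). These shares lie below those of all genes, of which 18.3% were higher at W6 and 17.9% higher and 25.1% lower at W12. Leaving out 1 library gave 0 to 12 higher at W6, and 1 to 12 higher and 1 to 5 lower at W12. Of 18 TCA cycle genes, 5 were higher and 1 lower at W6, and 4 higher and 3 lower at W12, against 18.3% and 14.1% of all genes at W6 and 17.9% and 25.1% at W12. With 1 library left out, 1 to 7 were higher at W6 and 1 to 9 at W12. At W6 the higher ones were *Idh3a*, *Suclg1*, *Mdh2*, *Sucla2* and *Idh3g*, with 0.78, 0.75, 0.69, 0.69 and 0.47, and the lower one *Idh2*, with -0.50, each call lost without at least 1 library. The lower ones at W12 were *Idh2*, *Cs* (citrate synthase) and *Ogdh*, with -0.92, -0.69 and -0.66, and the higher ones *Suclg1*, *Sucla2*, *Idh3a* and *Idh3g*, with 0.88, 0.69, 0.60 and 0.51. The W12 calls of *Cox14*, *Cox15*, *Idh2*, *Cs*, *Ogdh* and *Suclg1* held without each library in turn, and those of *Sucla2*, *Idh3a* and *Idh3g* were lost without D0 replicate 2 or either W12 library (adjusted *P* up to 0.0643, 0.145 and 0.134).

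Among 33 tested genes of mitochondrial DNA expression and of the control of mitochondrial mass, 4 were higher and 7 lower at W12. Both shares are below those of all genes, 17.9% and 25.1%, and leaving out 1 library gave 0 to 4 higher and 4 to 6 lower. *Polrmt*, the mitochondrial RNA polymerase, *Polg*, the mitochondrial DNA polymerase, and the coactivators *Ppargc1b* and *Pprc1* were lower at W12 by -1.15, -1.17, -1.13 and -1.12 (adjusted *P* = 0.00230, 0.00154, 0.00143 and 0.00350), together with *Tbrg4*, *Esrra* and *Nrf1* (-1.40, -0.76 and -0.43). *Tfb2m*, an initiation factor of mitochondrial transcription, *Slirp*, *Ssbp1* and *Hsd17b10* were higher, by 0.95, 0.77, 0.73 and 0.57. The calls of *Polrmt*, *Polg*, *Ppargc1b* and *Pprc1* held without each library in turn. The other 7 were each lost without W12 replicate 1 (adjusted *P* 0.0648 to 0.259), and all but *Tfb2m* without 2 further libraries. *Tfam* and *Ppargc1a* were not called. *mt-Rnr1*, the small ribosomal RNA of mitochondrial DNA, was at 486 and 452 TPM at D0, 1041 and 902 at W1, 779 and 818 at W2, 614 and 855 at W6, and 855 and 647 at W12, and was called higher at all 4 timepoints (1.05, 0.77, 0.63 and 0.66), each call lost without at least 2 of its 4 libraries (up to 0.0939, 0.183, 0.201 and 0.167), while *mt-Rnr2* was not called. *Cycs*, the electron carrier cytochrome *c*, was at 45.7 and 23.5 TPM at D0 and 58.7 and 64.9 at W12 (0.89, adjusted *P* = 0.0318, lost without D0 replicate 2 or either W12 library), and *Cyc1*, cytochrome *c*1 of complex III, at 323 and 194 TPM at D0 and 502 and 488 at W6 (0.98, 0.0121, held without each library in turn). *Atpif1*, the inhibitor of the ATP synthase, lay between 1221 and 1873 TPM in all libraries and was not called.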

How the data were processed

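RNA-seq was analysed for 10 time-course libraries, grouped by their sample labels. The authors deposited TPM per gene, made with Salmon 1.4.0 against a GENCODE index of GRCm38 holding the transgene and summed by Tximport 1.12.3. TPM sum to 1000000 per library, so depth and counting error are unknown. The 13110 genes that averaged 1 TPM or more were tested as log2(TPM + 1), which understates changes of low genes. limma 3.58.1 (R 4.3.3) fitted the means of 5 timepoints over all 10 libraries (5 residual degrees of freedom), using eBayes with trend and Benjamini-Hochberg adjustment over all genes, with a threshold of 0.05. The study's DESeq2 test needs counts, which these TPM do not give. Replicates are called biological in the labels without further detail, so *P* values measure the spread between such samples.

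The members and lists were chosen with earlier results of these data known. The text names all mitochondrial members, tissue-restricted forms and their common counterparts, complex II, core catalytic subunits, the nuclear member with the highest and the lowest change of complexes I, III, IV and V at W2, W6 and W12, *Atpif1*, *Cycs*, *Cyc1*, *Tfam*, *Ppargc1a*, *Ppargc1b*, and members of counts of 5 or fewer calls in the comparisons as reported (alternatives apart). The other genes of related lists, *Ndufb4* and *Ndufb4c* and the promoter genes were named after their values were seen. Copies were found with blastn 2.17.0 among GENCODE M21 transcripts (at least 90% identity for mitochondrial members, 95% for nuclear). Promoters are from RefSeq on GRCm38.p6. Python 3.11.15, pandas 2.3.3, numpy 2.4.6 and matplotlib 3.10.9 were used.

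The fit was also run on simulated data, with 200 of 13110 genes changed between W12 and D0. It called 91 of 100 changed by 2 and 49 of 100 changed by 1 on the log2 scale, and 8 unchanged genes. Alternatives were a pseudocount of 0.1, all genes above 0 TPM, a filter at 5 TPM, quantile normalization, median-ratio scaling, rescaling without mitochondrial genes, a length and GC correction, eBayes without trend, the 4 libraries of a comparison alone, an absolute change of at least 1, a replicate block, each library left out, pseudogene-marked symbols added to their parents, and for the ratio the mean of logs and the highest gene left out. Adding near-identical copies, a crossed block and the contrasts of W2 with W1 and of W6 with W2 were chosen after seeing the data.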

Additional observations from a re-analysis of the deposited data

How the results depend on the processing

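Counts of members called rest on single libraries and on a shared estimate of spread. The shares of all genes called under these alternatives are not given. With each library left out in turn, nuclear members called ranged from 0 to 25 at W1, 0 to 52 at W2, 9 to 68 at W6, 3 to 65 at W12 and 0 to 2 for W12 against W6, and mitochondrial members from 0 to 6, 0 to 6, 1 to 9, 5 to 12 and 0 to 1. With all genes above 0 TPM in the fit, the nuclear counts for these 5 comparisons were 0, 1, 7, 9 and 1, and the mitochondrial ones 0 at W1, 1 at W2, 2 at W6 and 0 for W12 against W6. With only the 4 libraries of a comparison, which leaves fewer residual degrees of freedom, 1, 1, 3 and 1 nuclear members were called from W2 on. Those called higher were 0 at W2, 0 at W6, 2 at W12 and 1 for W12 against W6. The mitochondrial members called were 0, 1, 0 and 0 at W1, W2, W6 and for W12 against W6. The 1 at W2 was none of the 7 called there with all 10 libraries. An absolute log2 change of at least 1 left 1, 4, 5 and 1 nuclear members from W2 on and 3 and 0 mitochondrial ones at W2 and W6. Quantile normalization and the length and GC correction each gave 25 nuclear members at W12 and 5 for W12 against W6 (1 higher and 4 lower), while median-ratio scaling gave 59 at W12, all higher, and 3 for W12 against W6, where it moved the nuclear median from 0.06 to 0.23. That median was -0.05 with the correction and -0.07 without W6 replicate 1. The correction also gave 12 mitochondrial members at W1, 12 at W2 and 2 for W12 against W6, median-ratio scaling gave 2 for that comparison, and adding the copies gave 0. The cause was not tested.

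The difference of the mitochondrial to nuclear ratio from D0 ranged over left-out libraries from 0.62 to 0.98 at W1, 0.45 to 0.80 at W2, -0.07 to 0.29 at W6 and 0.29 to 0.74 at W12. At W6 it turned to -0.070 without D0 replicate 1 and to -0.0026 with the mitochondrial copies added. Of the genes named, *Cox6b2* at W12 turned from -0.21 to 0.62 without D0 replicate 1 (adjusted p = 0.0483), and was -1.04 without D0 replicate 2 (0.0114), with adjusted p from 0.0114 to 1 over its alternatives. Of the 3268 values of named genes under the alternatives, 265 lost a call and 93 gained one with the same direction. A further 125 changed sign where neither value was called, 33 of these without D0 replicate 2, and 2784 kept sign and call. Replicate numbers are shared across timepoints in name only: the correlations of same-numbered deviations lay between -0.13 and 0.18. With the replicate block, 4 mitochondrial members were called at W2, and 24 nuclear members were called at W6 and 28 at W12. With crossed numbers in the block, 1 nuclear and 4 mitochondrial members were called at W1, 36 and 5 at W6, and 2 and 1 for W12 against W6. Median-ratio scaling moved the median of all genes by 0.15 for W12 against W6, quantile normalization by 0.10.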
